A study of Mus musculus with 192 samples.

Results

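Frem3 and 4 other extracellular matrix genes, Frem1, Frem2, Fras1 and Col11a1, are described here in the hippocampus of a mouse model of Huntington's disease. The 5 genes were picked by their GENCODE vM21 symbols out of the 41128 genes of the deposited count table. Frem3 was picked because its response to small interfering RNA (siRNA) in these same mice differed between genotypes, so its comparisons that involve mice given an siRNA are descriptions without a test. Its relations to markers within groups and its sex difference, both fitted with the groups' own levels taken out, do carry a test. All 5 genes had enough reads to pass the low-count filter in each of the 3 treatment regimens, in which 16575, 16374 and 15852 genes were tested.

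The 192 libraries were made from polyA-selected hippocampal RNA, 1 library a mouse. The mice were zQ175, which carry an expanded CAG repeat knocked into the mouse huntingtin gene Htt, and wild type (WT). Mice of either genotype received HTT-10150, an siRNA against full-length Htt transcripts, or HTT-634.486, a pair of siRNAs (HTT-634 with HTT-486) against the short transcript HTT1a, or a non-targeting siRNA (NTC), or were left untreated. Regimen 2[4]6 had 1 dose, given at an age of 2 months, and brains were taken at 6 months. In 6[4]10 the dose came at 6 months and the brain at 10, and in 2.6[8]10 mice were dosed at both 2 and 6 months and killed at 10. These make 24 groups of 8 mice, 4 female and 4 male each. The untreated mice of a regimen differ from its NTC mice in whatever the administration involved as well as in the siRNA, and the labels tie no regimen to a common preparation, so age, regimen and preparation cannot be told apart.

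FRAS1, FREM1 and FREM2 are very large extracellular proteins built of chondroitin sulfate proteoglycan (CSPG) and Calx-beta repeats. They stabilise one another as a complex beneath epithelial basement membranes, and loss of any of them causes skin blistering, fused digits and kidney defects in mice (the blebs phenotypes), with Fraser syndrome and related disorders in people. FREM3 has the same repeats and was found in basement membranes of mouse tissues, but far less is known of it. Col11a1 encodes a chain of collagen XI, a minor fibrillar collagen that sets fibril thickness in cartilage. It is a matrix gene but no basement membrane collagen, so it is described by its own name and apart from the others.

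The sequence upstream of the start site is shown for Frem3 and for Col11a1, whose levels carry the results below. Both are from RefSeq on assembly GRCm38.p6 and span the 250 bases before and the 50 bases after the RefSeq start, 5′ to 3′ on the gene's strand. Frem3 lies at chr8:80610789-80611088 on the plus strand and Col11a1 at chr3:114030290-114030589 on the plus strand. Capitals mark a GC box (GGGCGG on either strand) or a CCAAT box (CCAAT on either strand).
Frem3: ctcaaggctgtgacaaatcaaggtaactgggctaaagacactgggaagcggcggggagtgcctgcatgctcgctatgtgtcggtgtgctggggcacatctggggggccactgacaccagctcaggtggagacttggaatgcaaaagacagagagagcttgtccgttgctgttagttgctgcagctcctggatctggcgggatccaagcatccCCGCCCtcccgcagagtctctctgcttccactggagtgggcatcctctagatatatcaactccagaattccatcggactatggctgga
Col11a1: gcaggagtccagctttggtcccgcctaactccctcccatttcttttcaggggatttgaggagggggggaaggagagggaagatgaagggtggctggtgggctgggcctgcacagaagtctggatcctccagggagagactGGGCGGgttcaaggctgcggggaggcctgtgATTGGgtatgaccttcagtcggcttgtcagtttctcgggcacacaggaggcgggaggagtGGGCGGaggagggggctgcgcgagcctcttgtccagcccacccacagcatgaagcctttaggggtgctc
The Frem3 window held 1 GC box, which begins 38 bases before the RefSeq start. The GENCODE model of Frem3 begins further downstream, at chr8:80611080, so the GC box lies farther from that start. In Col11a1 there were 2 GC boxes, beginning 110 and 19 bases before the start, and 1 CCAAT box beginning 79 bases before it. Searched on both strands as well, a TATA box (TATAAA), an E-box (CACGTG), a cyclic AMP response element (TGACGTCA) and an AP-1 site (TGANTCA) had no match in either window. Among 32851 promoter windows of this length, 35.7% held a GC box, 37.4% a CCAAT box, 13.6% a TATA box, 7.15% that E-box, 1.79% the cyclic AMP response element and 7.81% the AP-1 site, so the matches in both genes are of common motifs. None of these motifs overlaps another in the windows shown. These are matches of letters, which show no binding.

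Library totals lay between 8.4 M and 56.0 M counts in 2[4]6, between 13.4 M and 41.3 M in 6[4]10, and between 13 M and 65.7 M in 2.6[8]10. Htt checked the labels of HTT-10150: its mean stood between 41.4% and 74.6% of the NTC mean in the 6 groups, past the edgeR threshold in 5 of them, and it stood at 95.3% to 106.7% under HTT-634.486. Markers of dentate granule cells (10 of 10) and of CA1 pyramidal cells (7 of 7) were detected in every group, as the hippocampal label requires. In 1 female and 1 male zQ175 HTT-10150 library of 6[4]10 both Xist and the Y-linked transcripts go against the sex label, and 1 female WT NTC library of 2.6[8]10 has neither, with Xist at 0.713 CPM and Y-linked transcripts at 0.634 CPM. The library of WT HTT-10150 female 1 of 2.6[8]10 had 6466 CPM (counts scaled to a common library total) of summed striatal markers, while the median of its group was 119.0 CPM. It enters the shared estimate of spread of its regimen, so results of 2.6[8]10 are also given without it where a count or a call moved. Choroid plexus markers, 11 of 11 detected, ran from 27.7 to 12030 CPM in sum over the libraries.

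Levels below are CPM scaled with trimmed-mean (TMM) factors. Per kb of exon, Fras1 was the most abundant of the 5 genes and Frem3 the least: the medians over 192 libraries were 0.245 CPM per kb for Frem3, 0.29 for Frem1, 0.348 for Frem2, 1.27 for Col11a1 and 1.43 for Fras1. Behind the Frem3 values stood 6 to 119 reads a library, with a median of 34, which makes it the gene with the thinnest counts. The medians were 97 reads for Frem1, 95 for Frem2, 362 for Col11a1 and 548 for Fras1. In bulk tissue, fewer cells that make a transcript and less of it per cell cannot be told apart.

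**Figure D1:**
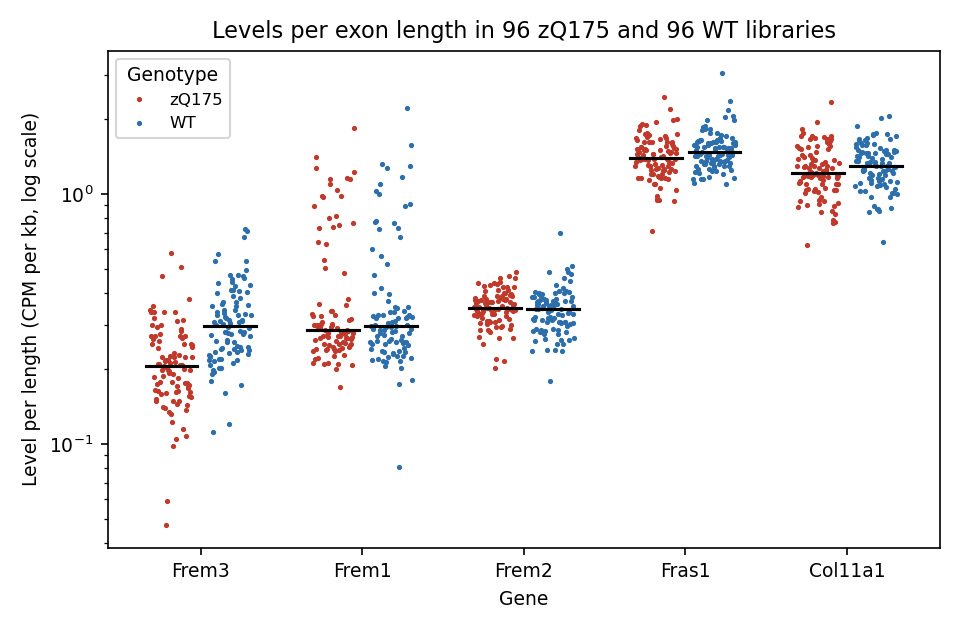
Level of each gene per kb of exon (log axis) in the 96 zQ175 and the 96 WT libraries, zQ175 left of WT; each dot is 1 library and the bar is the median. Fras1 and Col11a1 lie above the 3 Frem genes, and Frem1 has a tail of libraries far above its median.

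Frem3 (ENSMUSG00000042353, GRCm38 chr8:80611080-80695356, plus strand) is protein coding and is annotated with 6384 exon bases. The 24 group means ran from 0.976 CPM in zQ175 NTC mice of 2.6[8]10 to 3.46 CPM in WT NTC mice of the same regimen. The 9 lowest group means were all of zQ175 mice, and the 3 highest were the WT NTC groups of the 3 regimens. Neighbours in this order differed by less than their pooled standard deviation (SD) in 22 of 23 steps. The exception was the last step, where WT NTC mice of 2.6[8]10 stood 0.931 CPM above WT NTC mice of 6[4]10, against a pooled SD of 0.732 CPM.

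Untreated mice enter neither arm of the comparisons of an active siRNA with NTC, and there the genotype was tested. The rule that picked Frem3 names no siRNA, regimen or reference group. Untreated mice may thus have entered the choice through NTC against untreated, and the p-values below may not be independent of it. Untreated zQ175 mice of 6[4]10 had 0.67, 1.06 and 1.98 CPM of Frem3 (lowest, median and highest of 8), against 1.34, 1.92 and 2.73 CPM in untreated WT mice. The groups overlapped, but 6 zQ175 mice lay below every WT mouse and 4 WT mice lay above every zQ175 mouse. The log2 change was −0.76 ± 0.24 (SE; edgeR quasi-likelihood test, Benjamini-Hochberg adjusted p = 0.0287), and 11.5% of all genes tested were called in that comparison. An exact two-sided permutation test on the same CPM gave p = 0.00699 (0.021 adjusted over the 3 regimens). The edgeR call rested on single mice: leaving out any one of zQ175 female 3, male 2 or male 3, or of WT female 4 or male 1, put the adjusted p between 0.0517 and 0.0699, with a change of −0.73 to −0.68.

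Some lists of cell type markers moved with the genotype in these untreated mice of 6[4]10. Summed dentate granule markers were 418.9, 498.6 and 579.3 CPM in zQ175, against 611.8, 674.3 and 746.0 CPM in WT. CA1 pyramidal markers summed to 531.3, 568.8 and 645.2 CPM in zQ175, against 655.9, 705.3 and 841.6 CPM in WT, and astrocyte markers (9 of 9 detected) to 4043, 4166 and 4647 CPM in zQ175, against 4742, 4821 and 5025 CPM in WT. None of these 3 lists overlapped between the genotypes, no marker of them was at 0, and their part in the Frem3 difference was not tested. CA3 and CA2 pyramidal markers overlapped, at 322.7, 340.6 and 398.4 CPM in zQ175 and 392.2, 426.4 and 433.5 CPM in WT. Interneuron and endothelial markers overlapped too.

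In the other regimens the same comparison did not pass. Untreated zQ175 mice of 2[4]6 had 0.892, 1.28 and 2.99 CPM of Frem3, against 1.28, 1.46 and 2.32 CPM in untreated WT mice. The ranges overlapped, with 4 zQ175 mice below every WT mouse and 1 above, and the log2 change was −0.06 ± 0.21 (95% interval −0.47 to 0.35; edgeR adjusted p = 0.962) beside 4.15% of genes called. Those of 2.6[8]10 had 0.983, 1.49 and 2.42 CPM in zQ175, against 1.45, 1.79 and 2.76 CPM in WT, again with overlap, though 4 zQ175 mice lay below every WT mouse. The log2 change was −0.36 ± 0.19 (95% interval −0.73 to 0.01; edgeR adjusted p = 0.231), and 11.1% of genes were called. The genotype effect of 6[4]10 minus that of 2[4]6 was −0.70 ± 0.30, with an edgeR adjusted p of 1, so the regimens were not shown to differ.

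NTC mice showed a wider gap between the genotypes. The zQ175 NTC mice of 2.6[8]10 had 0.688, 1.03 and 1.12 CPM of Frem3 from 11 to 21 reads each, against 2.11, 3.30 and 4.60 CPM from 34 to 78 reads in WT NTC mice. Every one of the 8 zQ175 mice was below every WT mouse, and the means were 0.976 ± 0.146 CPM in zQ175 and 3.46 ± 0.93 CPM in WT (SD, n = 8 each). In this comparison 10.4% of all genes were called, but these mice entered the choice of Frem3 and nothing is read from the gap. The log2 change was −1.82 ± 0.19. Without the WT library low in both Xist and Y-linked transcripts, which had 2.93 CPM of Frem3, it was −1.84, and without the library of high striatal markers −1.81.

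Both once-dosed regimens had the same direction with overlap. The zQ175 NTC mice of 6[4]10 had 0.626, 1.17 and 2.15 CPM of Frem3, against 1.75, 2.63 and 3.02 CPM in WT NTC mice, a log2 change of −1.07 ± 0.23 beside 14.7% of genes called. Here 7 zQ175 mice lay below every WT mouse and 6 WT mice above every zQ175 mouse. Those of 2[4]6 had 1.04, 1.44 and 1.90 CPM, against 1.39, 2.12 and 3.66 CPM in WT NTC mice, a log2 change of −0.65 ± 0.21 beside 5.23% of genes called.

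**Figure D2:**
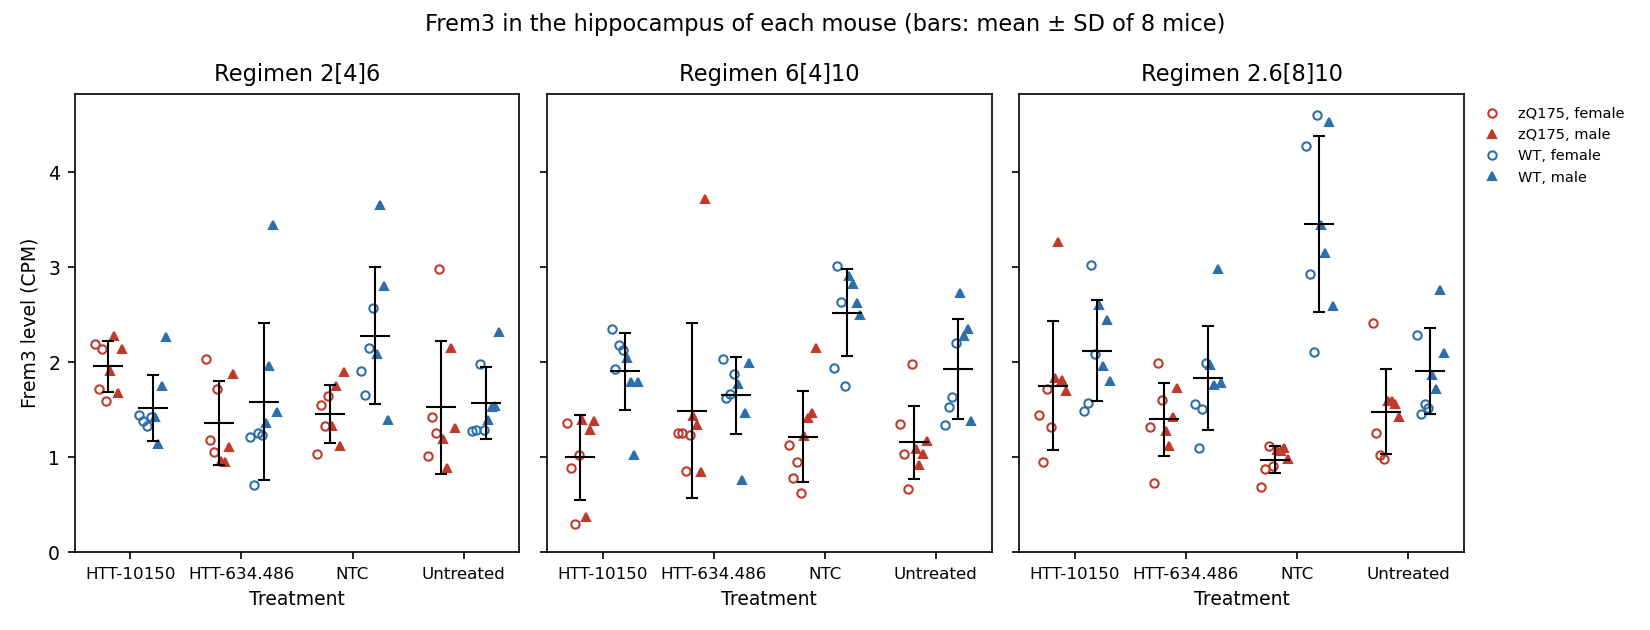
Frem3 level in CPM (linear axis from 0) in each of the 8 mice of the 24 groups, by regimen (panels) and treatment, zQ175 in red left of WT in blue; circles are females, triangles males, and the bar is the mean ± SD. In 2.6[8]10 the zQ175 NTC mice sit between 0.688 and 1.12 CPM and the WT NTC mice between 2.11 and 4.60 CPM.

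Set against untreated mice, NTC mice of 2.6[8]10 moved apart by genotype. The log2 difference of NTC from untreated was −0.60 ± 0.20 in zQ175 mice and 0.86 ± 0.18 in WT mice, which is a genotype difference of −1.46 ± 0.27. Of the WT NTC mice, 6 of 8 lay above every untreated WT mouse. The values were −0.07 in zQ175 and 0.53 ± 0.20 in WT in 2[4]6, and in 6[4]10 they were 0.08 in zQ175 and 0.39 ± 0.23 in WT. The genotype differences were −0.60 ± 0.29 in 2[4]6 and −0.31 ± 0.34 in 6[4]10.

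Under the active siRNAs the Frem3 levels of the genotypes lay close together in 2.6[8]10. Mice given HTT-10150 had 0.948, 1.71 and 3.26 CPM in zQ175, against 1.49, 2.02 and 3.02 CPM in WT. With HTT-634.486 there were 0.73, 1.37 and 1.99 CPM in zQ175 mice, against 1.10, 1.77 and 2.98 CPM in WT mice. Both pairs of groups overlapped, with log2 differences of zQ175 from WT of −0.28 ± 0.19 with HTT-10150 and −0.40 ± 0.19 with HTT-634.486. Within zQ175, 7 of 8 HTT-10150 mice and 7 of 8 HTT-634.486 mice lay above every NTC mouse.

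On the log2 scale, HTT-10150 differed from NTC in 2.6[8]10 by 0.85 ± 0.20 in zQ175 mice and by −0.70 ± 0.18 in WT mice, a genotype difference of 1.54 ± 0.27. For HTT-634.486 the values were 0.50 ± 0.20 in zQ175, −0.92 ± 0.18 in WT, and 1.42 ± 0.27 between them. Both rest on the same 16 NTC mice, so they are not separate observations. Measured from untreated mice instead, the genotype difference was 0.09 ± 0.26 for HTT-10150 and −0.04 ± 0.27 for HTT-634.486. Without the library of high striatal markers the HTT-10150 values were 1.5 against NTC and 0.05 against untreated. The values past 1 were thus those taken against the NTC groups, which held both the lowest and the highest of the 24 means.

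The once-dosed regimens gave smaller and less uniform values. In 2[4]6, HTT-10150 zQ175 mice had 1.597, 2.03 and 2.28 CPM of Frem3, against 1.14, 1.43 and 2.26 CPM in WT, and the genotype difference of the change from NTC was 1.01 ± 0.29. With the dose at 6 months, in 6[4]10, HTT-10150 mice had 0.302, 1.15 and 1.39 CPM in zQ175, against 1.02, 1.99 and 2.36 CPM in WT, and that difference was 0.12 ± 0.34 (0.04 without the 2 zQ175 libraries whose sex label the transcripts go against). The zQ175 mice were thus higher by median than WT in the first regimen and lower in the second.

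HTT-634.486 mice of 2[4]6 had 0.946, 1.15 and 2.03 CPM of Frem3 in zQ175, against 0.713, 1.31 and 3.44 CPM in WT. Those of 6[4]10 had 0.844, 1.26 and 3.72 CPM in zQ175, against 0.766, 1.72 and 2.03 CPM in WT. Genotypes overlapped in both, and the highest mouse stood apart from the other 7 in WT of 2[4]6 and in zQ175 of 6[4]10. The genotype difference of the change from NTC was 0.44 ± 0.30 in 2[4]6 and 0.87 ± 0.34 in 6[4]10. From untreated mice it was −0.16 in 2[4]6 and 0.56 in 6[4]10 for HTT-634.486, and 0.41 and −0.19 for HTT-10150.

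**Figure D3:**
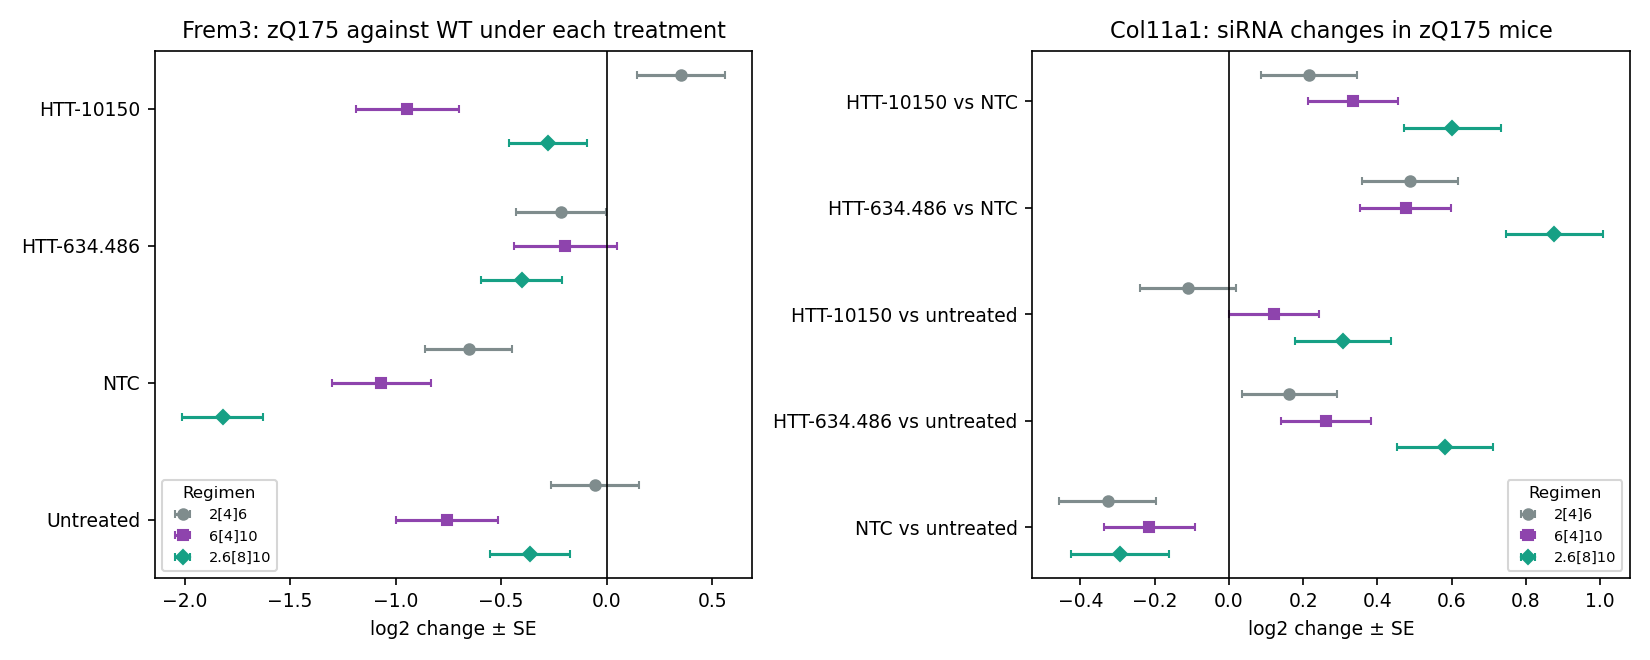
Left, log2 difference of Frem3 between zQ175 and WT mice under each treatment, ± SE; right, log2 change of Col11a1 in zQ175 mice for each siRNA comparison, ± SE; 1 marker a regimen. The Frem3 value of NTC mice in 2.6[8]10 lies at −1.82, and the Col11a1 change under HTT-634.486 against NTC in 2.6[8]10 lies at 0.88.

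Markers of neighbouring cell types and tissues were set beside Frem3. In 2.6[8]10 NTC mice, the summed CA3 and CA2 pyramidal markers (10 of 10 detected, none at 0) were 322.3, 335.6 and 375.8 CPM in zQ175, against 405.2, 410.6 and 459.5 CPM in WT. Dentate granule markers were 417.3, 466.1 and 489.2 CPM in zQ175, against 590.8, 647.0 and 846.2 CPM in WT. Astrocyte markers were 3909, 4213 and 4371 CPM in zQ175, against 4545, 4943 and 5114 CPM in WT. None of the 3 lists overlapped between these genotypes. CA1 markers of the same NTC mice overlapped, at 439.4, 518.0 and 576.4 CPM in zQ175 and 504.6, 609.4 and 658.8 CPM in WT. Interneuron and endothelial markers overlapped too. Untreated mice of 2.6[8]10 had 326.1, 349.0 and 412.8 CPM of the CA3 and CA2 list in zQ175, against 384.6, 424.8 and 461.6 CPM in WT, and 388.8, 451.1 and 532.8 CPM of the dentate list in zQ175, against 589.0, 649.1 and 805.5 CPM in WT. In these untreated mice the CA3 and CA2 sums overlapped between the genotypes and the dentate sums did not. Nor did their CA1 and astrocyte sums overlap, at medians of 513.7 and 3817 CPM in zQ175 and 653.2 and 4619 CPM in WT. Thalamic markers, 8 of 8 detected, were 120.2, 133.6 and 302.8 CPM in zQ175 NTC mice and 117.3, 131.1 and 208.5 CPM in WT NTC mice. The part of these cell types in the Frem3 values was not tested.

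Each list was also given a marker score, the mean log2 CPM of its markers, which weighs them otherwise than the sums do. Over 192 libraries with group means removed, Frem3 went with the thalamic score at Pearson r = 0.332 and Spearman rho = 0.248. Of 80 relations between the 5 genes and the marker lists, permutation within groups gave these adjusted p-values of 0.00018 and 0.0037. The r was 0.379, 0.419 and 0.196 in 2[4]6, 6[4]10 and 2.6[8]10, and 0.294 without the 2 libraries farthest out. The relation is weak, and at a median of 34 reads it is given as a description only.

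Among 14309 genes with a mean log2 CPM of at least 0, those most like Frem3 over the 24 group means were Cdh9 (a cadherin, r = 0.877), Slc8a2 (a sodium-calcium exchanger, 0.834), Klhl2 (0.829), Actr1b (a dynactin subunit, 0.826) and Chrm1 (a muscarinic acetylcholine receptor, 0.821). With the group means removed, over 192 libraries, the list was another one: Unc5c (a netrin receptor, 0.488), Adarb1 (an RNA-editing enzyme, 0.449), Syt10 (0.428), Gnb1 (0.419) and Chrnb2 (a nicotinic receptor subunit, 0.414). Cdh9 stood at 0.032 on that measure. The other members were less like Frem3 over the group means, at 0.512 for Fras1, 0.082 for Frem2, 0.003 for Frem1 and −0.019 for Col11a1.

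Fras1, Frem1, Frem2 and Col11a1 were tested in 23 contrasts in each regimen, 276 tests in all, of which 5 passed at an edgeR adjusted p under 0.05. Over the same contrasts 2.45% of all tests of all genes passed. Fras1 had 1 of the calls and Col11a1 had 4. Frem1 and Frem2 passed in 0 of their 69 edgeR tests each, with an unadjusted p under 0.05 in 5 tests of Frem1 and 4 of Frem2, and DESeq2 called 0 for either.

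Fras1 (ENSMUSG00000034687, GRCm38 chr5:96373955-96784728, plus strand) encodes the founding protein of the Fraser complex, and has the most exon bases of the set, 17709. It lies on the chromosome of Htt, 61.5 Mb away, and exons of the antisense gene Gm42604 overlap its exon sequence. Whether counting used strand is not stated, so reads of the overlap may come from either gene. Group means ran from 20.1 to 29.7 CPM, and neighbours in the order lay within their pooled SD in 23 of 23 steps.

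The genotype call of Fras1 was in NTC mice of 6[4]10. There zQ175 mice had 16.7, 19.1 and 29.4 CPM, against 21.8, 26.9 and 31.0 CPM in WT mice. The groups overlapped, with 6 zQ175 mice below every WT mouse and 1 WT mouse above every zQ175 mouse. Fras1 fell by a log2 change of −0.42 ± 0.11 in zQ175 (edgeR adjusted p = 0.00433), in a comparison in which 14.7% of genes were called.

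Other treatments of 6[4]10 did not pass. Untreated zQ175 mice had 18.6, 22.6 and 26.4 CPM of Fras1, against 23.4, 28.2 and 30.4 CPM in WT, with a log2 change of −0.26 ± 0.11 (edgeR adjusted p = 0.114). The changes were −0.30 ± 0.11 with HTT-10150 (edgeR adjusted p = 0.0509) and −0.02 ± 0.11 with HTT-634.486 (0.93). The genotype effect of NTC mice was not shown to differ from that of untreated mice, at −0.16 ± 0.15 (edgeR adjusted p = 1). In NTC mice the log2 change was 0.06 in 2[4]6 (edgeR adjusted p = 0.828) and 0.00 in 2.6[8]10 (0.994). Dentate granule sums of the 6[4]10 NTC mice were 435.8, 506.9 and 541.9 CPM in zQ175 and 632.5, 697.8 and 739.8 CPM in WT, with no overlap. Their CA3 and CA2 sums did not overlap either, at medians of 338.9 CPM in zQ175 and 429.9 CPM in WT. Dentate sums of HTT-634.486 mice of 6[4]10 did not overlap, at medians of 486.8 CPM in zQ175 and 682.7 CPM in WT. Nor did those of NTC mice of 2.6[8]10. The Fras1 changes of these groups were the −0.02 and 0.00 given above. The part of these cell types in the Fras1 values was not tested. Choroid plexus sums of the 6[4]10 NTC mice were 53.2, 70.1 and 3327 CPM in zQ175 and 39.5, 58.6 and 1954 CPM in WT. With the choroid plexus marker score in the model the Fras1 change was −0.45 (edgeR adjusted p = 0.000205).

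Frem2 (ENSMUSG00000037016, GRCm38 chr3:53513938-53657355, minus strand) encodes a transmembrane partner of FRAS1. It was the steadiest of the 3 Frem genes: its group means lay between 4.14 and 5.03 CPM, and the median coefficient of variation within a group was 16.9%, against 67.96% for Frem1 and 27.4% for Frem3. Untreated zQ175 mice had 4.02, 4.81 and 5.40 CPM in 2[4]6, against 3.49, 4.70 and 5.25 CPM in WT mice. For 6[4]10 the values were 3.51, 4.64 and 6.12 CPM in zQ175 and 3.31, 4.06 and 5.43 CPM in WT. For 2.6[8]10 they were 3.50, 4.77 and 6.42 CPM in zQ175 and 3.50, 4.83 and 6.83 CPM in WT. The genotypes overlapped in all 3 regimens. The smallest adjusted p of Frem2 belonged to sex in 6[4]10, at a male minus female log2 difference of 0.19 ± 0.06 (edgeR adjusted p = 0.114), and in 2[4]6 the sign was the other way at −0.12 ± 0.05 (0.116).

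Frem1 (ENSMUSG00000059049, GRCm38 chr4:82897920-83052339, minus strand) encodes the secreted member of the complex. It varied most within groups. Untreated zQ175 mice had 2.93, 5.52 and 13.6 CPM in 2[4]6, 2.91, 3.77 and 14.4 CPM in 6[4]10, and 2.88, 3.81 and 25.6 CPM in 2.6[8]10. Untreated WT mice had 3.01, 4.19 and 18.4 CPM in 2[4]6, 3.13, 4.25 and 10.2 CPM in 6[4]10, and 2.52, 4.54 and 22.01 CPM in 2.6[8]10. The genotypes overlapped throughout, and in each of these 6 groups the highest mouse lay over 2 times above the median.

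The high Frem1 libraries were those with choroid plexus markers. Summed CPM of the 11 markers split the libraries into 48 with at least 500 CPM and the rest below, a line drawn after the values were seen. In the 48 libraries, Frem1 ran from 4.53 to 30.8 CPM and its log2 level went with that of the marker sum at r = 0.948 and rho = 0.938. The permutation p was 1e-05, the smallest that 100000 resamples can give, and 0.0001 adjusted over 10 relations. Within regimens r was 0.947, 0.935 and 0.948, and without the 2 farthest libraries it was 0.94. In the libraries below the line Frem1 ran from 1.13 to 5.58 CPM and r was 0.269, with rho = 0.212 (permutation p adjusted over 10 relations 0.0032 and 0.026).

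Frem2 and Fras1 went with the choroid plexus sum less closely in the 48 libraries, at r = 0.586 and rho = 0.561 for Frem2 and r = 0.568 and rho = 0.601 for Fras1 (adjusted permutation p up to 0.00023). Within 6[4]10, where 12 of these libraries lie, r was 0.145 for Frem2 and 0.001 for Fras1, so that relation did not hold in every regimen. For Frem3 r was 0.083 (adjusted permutation p = 0.77), and for Col11a1 −0.233 (0.23).

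**Figure D4:**
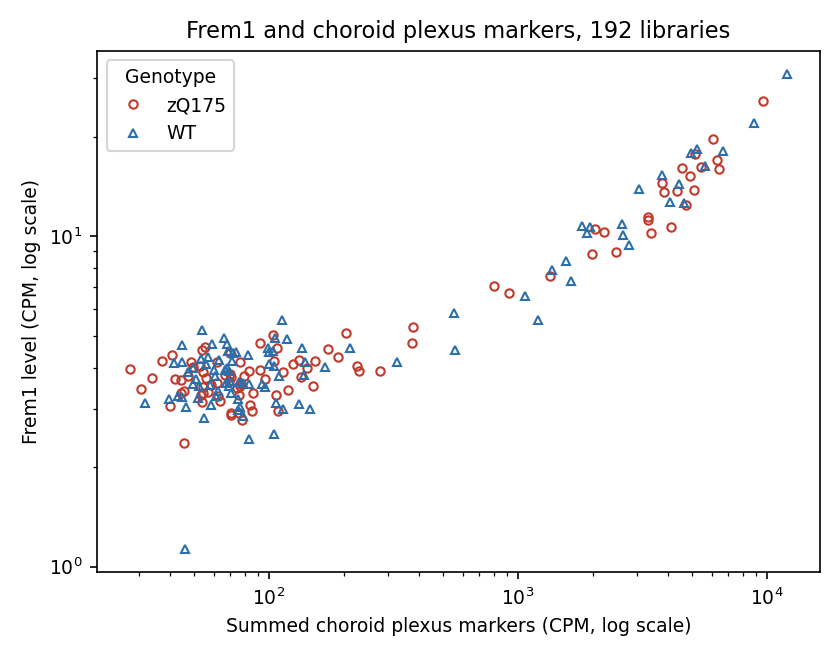
Frem1 level against the summed choroid plexus markers, both in CPM on log axes, in 96 zQ175 and 96 WT libraries; each symbol is 1 library. Below 500 CPM of markers Frem1 stays under 5.58 CPM, and above it Frem1 climbs with the markers up to 30.8 CPM.

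Of the Frem1 tests, the one with the smallest unadjusted p was HTT-634.486 against NTC in zQ175 mice of 6[4]10, at a log2 change of 0.95 ± 0.36 (edgeR adjusted p = 0.164). With the choroid plexus marker score as a covariate it was 0.29 (edgeR adjusted p = 0.242). Frem1 group means ran from 4.33 to 8.94 CPM, and neighbours in the order lay within their pooled SD in 23 of 23 steps.

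Col11a1 (ENSMUSG00000027966, GRCm38 chr3:114030540-114220718, plus strand; 12744 exon bases) was the member with siRNA effects past the threshold. Its 3 lowest group means were the zQ175 NTC groups, at 11.6 CPM in 2.6[8]10, 13.2 CPM in 6[4]10 and 13.4 CPM in 2[4]6. The highest was the zQ175 HTT-634.486 group of 2.6[8]10 at 21.3 CPM. Neighbouring groups lay within their pooled SD in 23 of 23 steps.

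Given HTT-634.486, zQ175 mice of 2.6[8]10 had 16.2, 20.9 and 29.6 CPM of Col11a1, against 9.76, 10.7 and 17.5 CPM in zQ175 NTC mice. Of the HTT-634.486 mice 7 lay above every NTC mouse, and 7 NTC mice lay below every HTT-634.486 mouse. The means were 21.3 ± 3.76 CPM with HTT-634.486 and 11.6 ± 2.61 CPM with NTC (SD, n = 8 each). Col11a1 rose by 0.88 ± 0.13 on the log2 scale (edgeR adjusted p = 9.7e-06), in a comparison in which 2.04% of all genes were called, 323 in number. Without the library of high striatal markers it was 0.88 again, and 693 genes were called.

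HTT-10150 gave a smaller rise there. Its zQ175 mice of 2.6[8]10 had 14.9, 16.7 and 21.2 CPM of Col11a1, against the same NTC mice. Of these 8 mice 3 lay above every NTC mouse. The log2 change was 0.60 ± 0.13 (edgeR adjusted p = 0.00672), with 0.871% of genes called, which is 138 genes, or 337 without the library of high striatal markers. The 2 active treatments, HTT-10150 over HTT-634.486, differed by −0.27 in zQ175 mice of 2.6[8]10 (edgeR adjusted p = 0.802), which does not show that they act alike.

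Untreated zQ175 mice of 2.6[8]10 had 11.7, 14.4 and 16.97 CPM of Col11a1. Against them HTT-634.486 raised it by 0.58 ± 0.13 (edgeR adjusted p = 0.00375, with 4.9% of genes called, 777 in number, or 1245 without the library of high striatal markers), and HTT-10150 stood at 0.31 ± 0.13 (0.225). NTC stood at −0.29 against untreated (0.38), so the NTC mice lay on the low side of untreated without passing the test. Of the HTT-634.486 mice 7 lay above every untreated mouse.

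The other regimens had the same direction against NTC in zQ175. The HTT-634.486 mice of 6[4]10 had 13.4, 18.1 and 24.7 CPM of Col11a1, against 10.7, 12.7 and 16.2 CPM in NTC mice, with overlap. Col11a1 rose by 0.48 ± 0.12 (edgeR adjusted p = 0.0365), with 0.959% of genes called. Leaving out any one of 10 of these 16 mice lifted the adjusted p above the threshold, to between 0.0544 and 0.128; they were HTT-634.486 female 1, female 3, male 1, male 2 and male 3, and NTC female 1, female 2, female 3, male 3 and male 4.

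The HTT-634.486 zQ175 mice of 2[4]6 had 14.2, 18.8 and 23.1 CPM of Col11a1, against 7.99, 13.6 and 16.5 CPM in NTC mice. The log2 change of 0.49 ± 0.13 did not pass (edgeR adjusted p = 0.254) in a comparison with 0.0302% of genes called, which is 5 genes. HTT-10150 against NTC gave 0.22 in 2[4]6 (edgeR adjusted p = 0.353, with 3.57% of genes called) and 0.33 in 6[4]10 (0.508, with 0.0672% called). HTT-634.486 against untreated gave 0.16 in 2[4]6 (0.502, with 6.58% called) and 0.26 in 6[4]10 (0.194, with 3.9% called).

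WT mice of 2.6[8]10 had 14.3, 17.6 and 26.1 CPM of Col11a1 with HTT-634.486, against 11.2, 14.1 and 17.8 CPM with NTC. The groups overlapped, and the log2 change was 0.41 ± 0.13 (edgeR adjusted p = 0.123). Without the library of high striatal markers, which belongs to another WT group but enters the spread, it was 0.42 ± 0.12 and passed (0.0462). For HTT-10150 against NTC the WT change was 0.11. The genotype difference of the HTT-634.486 response was 0.46 ± 0.18 (edgeR adjusted p = 0.915), and of the HTT-10150 response 0.49 ± 0.19 (0.722). A different Col11a1 response in zQ175 and WT mice was thus not shown. Between genotypes the change was −0.24 in untreated mice of 2.6[8]10 (edgeR adjusted p = 0.267) and −0.29 in NTC mice (0.169).

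**Figure D5:**
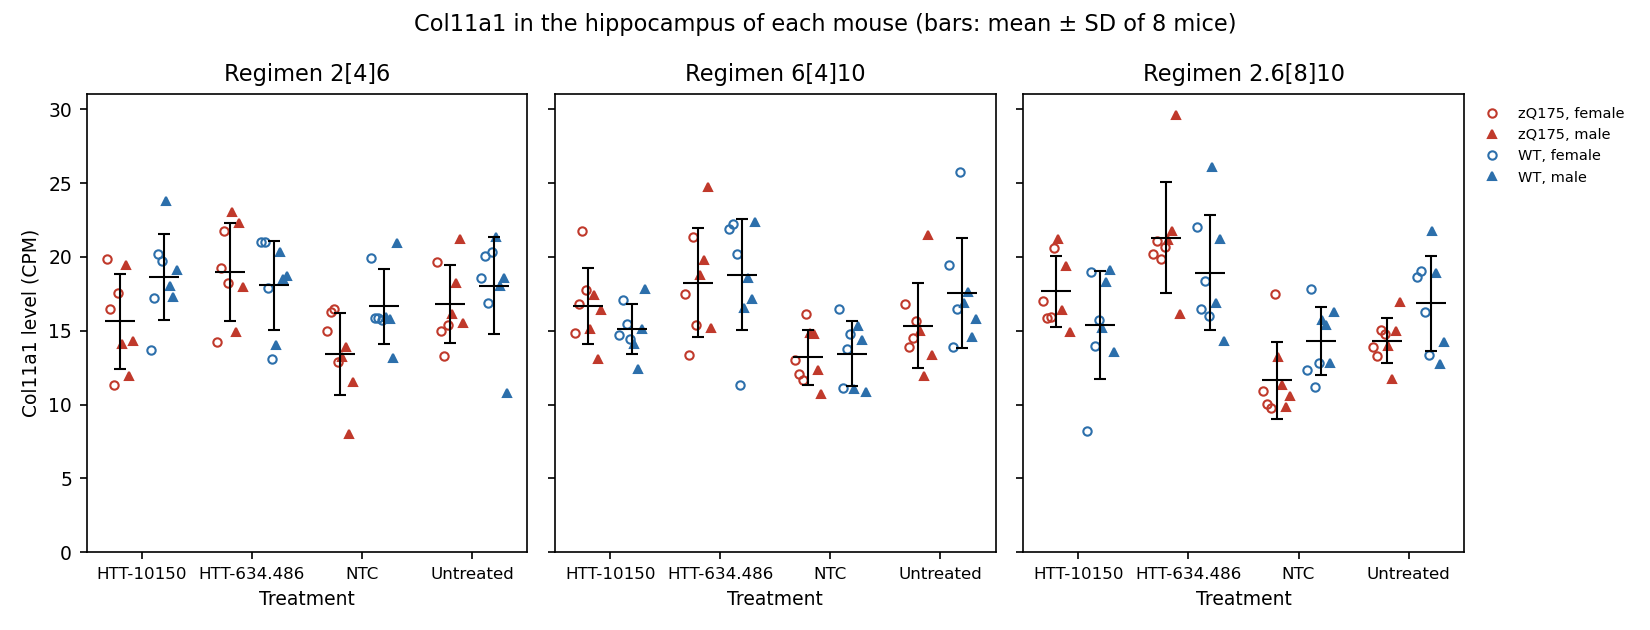
Col11a1 level in CPM (linear axis from 0) in each of the 8 mice of the 24 groups, by regimen (panels) and treatment, zQ175 in red left of WT in blue; circles are females, triangles males, and the bar is the mean ± SD. The zQ175 HTT-634.486 mice of 2.6[8]10 average 21.3 CPM and the zQ175 NTC mice of that regimen 11.6 CPM.

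Beside the Col11a1 rise in 2.6[8]10, dentate granule markers summed to 464.3, 512.3 and 605.3 CPM in zQ175 HTT-634.486 mice, against 417.3, 466.1 and 489.2 CPM in zQ175 NTC mice. CA1 pyramidal markers summed to 507.2, 593.0 and 644.7 CPM with HTT-634.486, against 439.4, 518.0 and 576.4 CPM with NTC. Both lists were higher by median with HTT-634.486 in this regimen, and no marker of either was at 0. In 6[4]10, where Col11a1 also rose, both lists were lower by median in zQ175 mice with HTT-634.486. Dentate medians there were 486.8 CPM with HTT-634.486 and 506.9 CPM with NTC, and CA1 medians 556.3 and 568.0 CPM. The zQ175 HTT-10150 mice of 2.6[8]10, with the smaller rise, had medians of 531.2 CPM (dentate) and 540.6 CPM (CA1). Within groups, over 192 libraries, Col11a1 went with the dentate marker score at r = 0.333 and rho = 0.293 (permutation p adjusted over 80 relations 0.0011 and 0.00036), and with the striatal marker score at r = −0.40 and rho = −0.307 (6.7e-05 and 0.00027). By regimen the dentate r was 0.129, 0.197 and 0.546, and the striatal r was −0.316, −0.336 and −0.544. Without the 2 farthest libraries they were 0.261 and −0.276. The part of these cell types in the rise was not tested.

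Genes most like Col11a1 over the 24 group means were Col19a1 (another collagen, r = 0.827), Btbd16 (0.822), Grk4 (a kinase of G protein-coupled receptors, 0.818), Trpm4 (a cation channel, 0.808) and Car5b (a carbonic anhydrase, 0.786). Within groups Col19a1 stood at 0.343. These are ranks among 14309 genes, over 24 means that share the mice described above.

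Of 17 fibrillar collagens and collagen XI partners other than Col11a1, 16 were tested in 2.6[8]10. Under HTT-634.486 against NTC in zQ175 mice 2 rose and 0 fell: Col11a2, the partner chain of collagen XI, at 0.39 (edgeR adjusted p = 0.00594), and Col27a1 at 0.43 (0.0233). That is beside 2.04% of all genes called. The median of the list was 0.37, beside 0.0045 over all genes tested. Without the library of high striatal markers 5 rose, with Col5a1, Col5a2 and Col9a1 added, and 693 genes were called. Of 17 in 6[4]10, 1 rose, Col27a1 at 0.47 (edgeR adjusted p = 0.0274), with a list median of 0.40, and in 2[4]6 0 of 17 passed in edgeR (2 at an unadjusted p under 0.05, 0 in DESeq2), with a median of 0.27. The shares of all genes called there were 0.959% in 6[4]10 and 0.0302% in 2[4]6. Against untreated zQ175 mice of 2.6[8]10, Col11a2 rose by 0.50 and Col5a2 by 0.55, beside 4.9% of all genes called. In WT mice of 2.6[8]10, edgeR called 0 of the 16 with HTT-634.486 against NTC, and DESeq2 called 1. An unadjusted p under 0.05 was met by 7 there, and by 7 in zQ175. HTT-10150 against NTC raised 1 of the 16 in WT and 0 in zQ175. Of all 15852 genes tested, 119 were called in WT with HTT-634.486 and 540 with HTT-10150. Leptomeningeal fibroblast markers (12 of 12 detected, none at 0) summed in 2.6[8]10 to 72.02, 89.8 and 304.3 CPM in zQ175 HTT-634.486 mice, against 40.03, 60.3 and 353.1 CPM in zQ175 NTC mice and 76.5, 152.8 and 462.5 CPM in untreated zQ175 mice. In 6[4]10 they were 49.9, 92.4 and 297.5 CPM with HTT-634.486, against 51.5, 62.8 and 207.5 CPM with NTC. The sums were thus higher by median with HTT-634.486 than with NTC, with overlap, and their part in the collagen and basement membrane values was not tested.

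By genotype, untreated zQ175 mice had 2, 2 and 1 members of the collagen list raised in 2[4]6, 6[4]10 and 2.6[8]10, and 0 lowered in each. The shares of all genes called were 4.15%, 11.5% and 11.1%, so these counts are no result about the list. Col5a3 rose by 0.49 in 2[4]6 and 0.57 in 6[4]10, and Col9a2, a chain of the fibril-associated collagen IX, rose by 0.63 in 6[4]10 and 0.77 in 2.6[8]10. NTC mice had 0, 4 and 2 members raised and 0 lowered, beside 5.23%, 14.7% and 10.4% of all genes called, led by Col9a2 at 0.94 in 6[4]10.

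Among 32 core basement membrane genes, all tested, 6 rose and 0 fell with HTT-634.486 against NTC in zQ175 mice of 2.6[8]10, beside 2.04% of all genes called, and the list median was 0.12. It was 7 without the library of high striatal markers, with 693 genes called. NTC mice themselves had 2 of the 32 lowered against untreated zQ175 mice of 2.6[8]10, Col15a1 by −0.64 (edgeR adjusted p = 0.0215) and Lamc3 by −0.72 (0.0322), beside 1.02% of all genes called, and a list median of −0.15. The 6 raised by HTT-634.486 included the chains of collagen IV, Col4a2 at 0.51 ± 0.10 (edgeR adjusted p = 0.00177) and Col4a1 at 0.43 (0.00455), the collagen-binding protein Sparc at 0.28 (0.00522), and Pxdn, which cross-links collagen IV, at 0.24 (0.0321). Sparc alone rose in 6[4]10, by 0.31, and in 2[4]6 0 of 32 passed in edgeR (3 at an unadjusted p under 0.05, 0 in DESeq2). The shares of all genes called there were 0.959% in 6[4]10 and 0.0302% in 2[4]6. With HTT-10150 in 2.6[8]10, Sparc rose by 0.40 (edgeR adjusted p = 4.79e-05) and Col4a2 by 0.44 (0.0157), beside 0.871% of all genes called. These were 2 genes in all, or 4 without the library of high striatal markers, with 337 genes called. Against untreated mice HTT-634.486 raised 3 in 2.6[8]10, Col4a2 by 0.49, Col4a1 by 0.36 and Pxdn by 0.23, beside 4.9% of all genes called. It raised 5 without that library, with 1245 genes called. In WT mice of 2.6[8]10, HTT-634.486 against NTC raised 1 of the 32 and HTT-10150 raised 2, with 0 lowered in each. Of all 15852 genes tested, 119 and 540 were called in these WT comparisons. An unadjusted p under 0.05 was met by 11 of the 32 with HTT-634.486 in WT, against 9 in zQ175. A difference of the list between the genotypes was not tested.

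By genotype, untreated zQ175 mice had 1, 2 and 1 members of the basement membrane list raised and 0, 2 and 2 lowered in the 3 regimens. These counts lie near the 4.15%, 11.5% and 11.1% of all genes called and are no result about the list. Smoc1, a SPARC-related protein, was raised in each, by 0.44, 0.52 and 0.55, and in NTC mice by 0.37, 0.51 and 0.36. In untreated zQ175 mice of 2.6[8]10 the lowered genes were Col4a2 (−0.33, edgeR adjusted p = 0.0268) and Sparc (−0.19, 0.0424), and 3 were raised and 4 lowered without the library of high striatal markers. Over the alternatives run up to 2602 genes were called in that comparison, so the counts without that library are no result about the list either.

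Of 14 partners and receptors of the Fraser complex other than the members, 12 were tested. In 2.6[8]10, 0 of 12 passed in edgeR or DESeq2 in each of the 5 comparisons described, with 2 or 3 at an unadjusted p under 0.05. Without the library of high striatal markers edgeR called 2 in untreated mice by genotype (Itga6 raised, Itga8 lowered), 3 in NTC mice by genotype and 1 under HTT-10150 against NTC. With all libraries 11.1%, 10.4% and 0.871% of all genes were called in these comparisons. Without that library 337 genes were called under HTT-10150 against NTC. Over the alternatives run the genotype calls reached 2602 and 2396 genes, so the genotype counts are no result about the list. HTT-10150 against NTC in zQ175 mice of 2[4]6 raised 2, the laminin receptor subunit Itga6 by 0.28 (edgeR adjusted p = 3.17e-05) and hemicentin Hmcn1 by 0.75 (0.000776), beside 3.57% of all genes called. Endothelial markers summed to 278.6, 317.7 and 348.9 CPM in these HTT-10150 mice, against 205.4, 263.7 and 268.1 CPM in NTC mice, and pericyte and smooth muscle markers to 189.7, 200.6 and 215.8 CPM, against 139.3, 162.9 and 181.2 CPM. Neither list, each with 10 of 10 detected and none at 0, overlapped between the treatments. HTT-634.486 against untreated lowered 3 in 2[4]6, Itga6 by −0.23, Hmcn1 by −0.61 and dystroglycan Dag1 by −0.25, beside 6.58% of all genes called. Endothelial sums there averaged 230.6 ± 30.4 CPM with HTT-634.486, against 283.7 ± 13.4 CPM in untreated mice (SD, n = 8 each), with overlap, and the pericyte and smooth muscle sums had medians of 160.1 CPM with HTT-634.486 and 191.3 CPM untreated. The part of these vascular cells in either set of changes was not tested. Among 6[4]10 NTC mice, zQ175 had 3 raised, Itgb4 by 0.27, Itgav by 0.16 and Cspg4 by 0.21, and 1 lowered, Itga8, a receptor subunit for nephronectin, by −0.26, beside 14.7% of all genes called. Grip2, a scaffold related to the GRIP1 that anchors the complex, was lowered by −0.22 in untreated zQ175 mice of 6[4]10. It was the 1 of 12 called there, beside 11.5% of all genes called, which is no result about the list.

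Sex did not pass for Frem3. The male minus female log2 difference was 0.15 ± 0.11 in 2[4]6 (edgeR adjusted p = 0.453), 0.18 ± 0.12 in 6[4]10 (0.525) and 0.23 ± 0.09 in 2.6[8]10 (0.215). Between untreated groups of different regimens, the difference of a single genotype with the smallest adjusted p among the 5 genes was in Fras1 of zQ175 mice, at −0.33 ± 0.13 for 6[4]10 against 2[4]6 (edgeR adjusted p = 0.155).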

How the data were processed

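RNA of 192 mouse hippocampi was measured, and the deposited table gives the authors' expected counts per gene, made with RSEM on GRCm38 per the submitters' processing notes. The sources used here name no aligner, software version or strand setting. All values were whole numbers, so nothing was rounded. Of 41135 features, 7 that are no Ensembl gene held 6.85e-06 percent of counts and were left out, and symbols and positions were taken from GENCODE vM21, which annotates 40254 of 41128 genes.

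Each regimen was fitted alone (64 libraries, 8 groups, sex as a covariate) in R 4.3.3 with edgeR 4.0.16: filterByExpr by group, TMM factors, quasi-likelihood test, Benjamini-Hochberg adjustment over all genes tested, threshold 0.05. Raised and lowered mean past that threshold. Levels are CPM with TMM factors of all 192 libraries, and correlations use log2 CPM with a prior count of 2. Alternatives used DESeq2 1.42.0 and limma 3.58.1 (voom). Exact permutation tests ran over all 12870 splits of 8 against 8 mice.

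The members, the gene lists and the tests were chosen with earlier results of these data known. Named genes are the members, Htt, up to 4 genes of a list with the smallest adjusted p in a comparison, and the 5 genes most like Frem3 or Col11a1; list genes that were called only without 1 library were named after their values were seen. The library names carry a number that the labels do not explain. It is shared by up to 6 mice, each number of 1 genotype and 61 of 62 of 1 sex. Deviations of mice that share it correlated at a mean r of 0.043, 0.104 and 0.113 in 2[4]6, 6[4]10 and 2.6[8]10, against −0.023, −0.017 and −0.011 for other mice of the same genotype and sex. The p-values take each mouse as independent, and with that number as a random block in limma-voom the Frem3 call of untreated 6[4]10 mice (−0.82, adjusted p = 0.00937) and the calls of Fras1 and Col11a1 were kept. The fit was also run on simulated counts with the library sizes of 2.6[8]10 and mice drawn independently. That simulation held no sex difference, no shared library numbers and no tissue carry-over, so it cannot speak to those.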

Additional observations from a re-analysis of the deposited data

Results flagged for a closer look

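In 32 of 120 gene and group combinations, 1 of the 8 mice stood apart from the other 7 by Dixon's criterion, which chance meets in about 1 in 20 groups. Frem1 had 13 of these groups, Frem3 6, Fras1 6, Col11a1 4 and Frem2 3.

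For Frem3 the mice standing high were WT HTT-634.486 male 3 of 2[4]6 at 3.44 CPM, zQ175 HTT-634.486 male 4 of 6[4]10 at 3.72 CPM, zQ175 HTT-10150 male 2 of 2.6[8]10 at 3.26 CPM and untreated zQ175 female 1 of 2.6[8]10 at 2.42 CPM. These 4 libraries had 354.2, 418.5, 431.0 and 280.0 CPM of summed thalamic markers, where their groups had medians of 218.0, 147.3, 148.2 and 149.6 CPM. Standing low in 6[4]10 were WT HTT-10150 male 3 at 1.02 CPM and WT HTT-634.486 male 2 at 0.766 CPM. They had 223.0 and 150.4 CPM of thalamic markers, where their groups had medians of 147.4 and 158.5 CPM. The first of these low mice thus lay above its group median in thalamic markers. Choroid plexus sums of the 4 high mice were 100.2, 2216, 279.4 and 150.9 CPM, and of the low mice 4963 and 58.8 CPM. The part of thalamic or choroid plexus tissue in these values was not tested.

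For Frem1 the mice stood high in every such group, and each had at least 1560 CPM of choroid plexus markers. In 2[4]6 they were zQ175 HTT-10150 male 1 at 12.5 CPM, WT HTT-10150 male 2 at 8.43 CPM and untreated WT female 4 at 18.4 CPM. In 6[4]10 they were zQ175 HTT-10150 male 3 at 11.2 CPM, zQ175 NTC male 4 at 11.4 CPM, WT HTT-10150 male 3 at 17.8 CPM, WT NTC male 3 at 10.7 CPM and untreated WT male 3 at 10.2 CPM. In 2.6[8]10 they were zQ175 HTT-10150 female 3 at 13.7 CPM, zQ175 HTT-634.486 male 4 at 16.2 CPM, zQ175 NTC male 2 at 16 CPM, WT HTT-634.486 male 4 at 12.6 CPM and WT NTC female 3 at 30.8 CPM.

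Fras1 stood high in zQ175 HTT-634.486 male 4 of 6[4]10 at 34.3 CPM, zQ175 NTC male 4 of 6[4]10 at 29.4 CPM, zQ175 HTT-10150 female 3 of 2.6[8]10 at 43.4 CPM, zQ175 HTT-634.486 male 4 of 2.6[8]10 at 38.8 CPM and WT NTC female 3 of 2.6[8]10 at 41.5 CPM. These 5 libraries had 2216 to 12030 CPM of choroid plexus markers. The highest Fras1 value, 53.7 CPM, was in WT HTT-10150 female 1 of 2.6[8]10, which had 45.8 CPM of choroid plexus markers and 6466 CPM of striatal markers. The same mouse had the highest Frem2 value, 9.20 CPM. Frem2 also stood high in zQ175 HTT-634.486 male 4 of 6[4]10 at 5.81 CPM and low in WT HTT-634.486 female 3 of 6[4]10 at 2.36 CPM.

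Col11a1 stood high in zQ175 HTT-634.486 male 3 of 2.6[8]10 at 29.6 CPM, in zQ175 NTC female 4 of 2.6[8]10 at 17.5 CPM and in untreated WT female 4 of 6[4]10 at 25.7 CPM. It stood low in untreated WT male 4 of 2[4]6 at 10.8 CPM, a library with 716.2 CPM of thalamic markers.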

How the results depend on the processing

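The added alternatives (single mice left out, the choroid plexus marker score as a covariate, and the libraries highest in choroid plexus or striatal markers left out) were chosen after seeing the data. For Frem3 in untreated mice of 6[4]10 the change ran from −0.95 to −0.63 (edgeR adjusted p 0.00842 to 0.151); without replicate numbers 1, 2 and 3 it was −0.78 (0.117), −0.68 (0.151) and −0.63 (0.146). In 2[4]6 it ran from −0.19 to 0.003 as replicate numbers were left out. The Frem3 NTC values and interactions of 2.6[8]10 kept their sign: −1.91 to −1.71 for zQ175 against WT in NTC mice, 1.36 to 1.79 for HTT-10150 and 1.26 to 1.53 for HTT-634.486. Replicate numbers did not pair mice (mean r 0.008 to 0.032), and with the replicate block the untreated Frem3 change of 6[4]10 was −0.774 (edgeR adjusted p = 0.0168), and the block ended no call of Frem3 or Col11a1.

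Col11a1 under HTT-634.486 against NTC in zQ175 mice of 2.6[8]10 passed under every alternative run (0.72 to 1.04). Under HTT-10150 it lost the call without replicate 2 (0.61, edgeR adjusted p = 0.097) and 3 (0.53, 0.163), and under HTT-634.486 against untreated likewise (0.51, 0.0839, and 0.53, 0.0806; 0.69 at most). In 6[4]10 HTT-634.486 against NTC ran from 0.30 to 0.56 as mice or replicate numbers were left out, and lost the call with no low-count filter (0.475, 0.051). Fras1 in NTC mice of 6[4]10 was −0.37, −0.33 and −0.37 without replicates 1, 2 and 3 (edgeR adjusted p 0.0579, 0.0634 and 0.0563), and in untreated mice passed with the choroid plexus score (−0.293, 0.0226) and with only those 16 libraries (−0.263, 0.0229). Fras1 changes near 0 turned: in NTC mice of 2.6[8]10 −0.055 without replicate 2, −0.023 without 1, −0.041 without 4 and −0.028 without the library low in both Xist and Y-linked transcripts; in 2[4]6 NTC mice −0.035 without replicate 1 (0.129 at most); in untreated 2[4]6 mice −0.018 and −0.042 without replicates 1 and 3 (0.144 at most).

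Counts of called genes moved most, for HTT-634.486 against NTC between 0 and 16 in 2[4]6, 12 and 344 in 6[4]10 and 71 and 693 in 2.6[8]10, and for HTT-10150 against NTC between 20 and 895, 0 and 24, and 38 and 337. Both counts of 0 arose by edgeR with a replicate number left out, with 1232 and 673 genes at an unadjusted p under 0.05 and 16 and 15 in DESeq2 on all libraries. HTT-634.486 against untreated ran from 62 to 1776 and 12 to 1142, and in 2.6[8]10 from 13.8% of the reported 777, without replicate 3, up to 1245, and zQ175 against WT from 320 to 822, 1160 to 2326 and 905 to 2602 in untreated and 355 to 1048, 1652 to 2658 and 844 to 2396 in NTC mice. The causes were not tested. At 6 to 119 reads, Frem3 is the value most limited by depth.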
